A study of Mus musculus with 18 samples.

Results

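Accessible chromatin at the 6 genes of the IkB family was described across 9 treatments of mouse macrophages. The members were the 45 regions, of 53796 measured, whose midpoint lay in the body of Nfkbia, Nfkbib, Nfkbie, Nfkbid, Nfkbiz or Bcl3, or was nearest to it within 50 kb among protein-coding genes. Nfkbia had 15 regions, Nfkbiz 12, Bcl3 9, Nfkbie 5, Nfkbib 2 and Nfkbid 2. A region with its midpoint within 1 kb of either end of the gene was called gene-end (12 regions), and the other 33, inside the gene or beyond it, were called distal. Nearness does not show which gene a region acts on.

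Accessibility was read by ATAC-seq, which cuts and tags open DNA with a transposase, in macrophages grown with M-CSF (20 ng/mL) from the bone marrow of wild-type C57BL/6 mice aged 6 to 12 weeks. Cells were kept for 4 h in medium or a first stimulus, and then for 4 h in fresh medium with or without a second stimulus; the series title names innate immune memory as the subject. Cells were stimulated with CpG DNA (100 nM), which binds TLR9, LPS (1 ng/mL), the bacterial ligand of TLR4, polyI:C (1 µg/mL), which mimics viral double-stranded RNA, and TNF (10 ng/mL), an inflammatory cytokine. A group's name gives its 2 treatments in order, each by its initial (M is medium). The group MM had medium in both periods. MC, ML, MP and MT had medium and then 1 stimulus, CL and PL had CpG or polyI:C before LPS, and CT and PT had CpG or polyI:C before TNF. Each group had 2 libraries, and the labels do not say whether these came from separate mice or cultures, so a p-value here covers only the variation among the libraries at hand. All libraries were of whole cultures, in which more cells open at a region and more opening per cell cannot be told apart.

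The libraries held 3141641 to 5986835 reads in regions, the fewest in MM replicate 2. Those of MP differed by about the sampling noise and were counted as 1 sample. The PT libraries had the lowest replicate correlation over all regions, 0.919, against 0.958 to 0.973 in the other groups. The limma fit took 1 spread per region, shared by all 9 groups, from the groups that entered with 2 samples. MP, with 1 sample, added nothing to that spread, so for MP it was borrowed wholly from other groups. Standard errors and p-values of comparisons with PT rest partly on the tighter groups and can be too small. All 8 macrophage markers, among them Csf1r and Spi1, had a gene-end region, at log2 CPM of 3.00 to 5.88 in single libraries. None of the 6 T cell, 5 B cell or 6 fibroblast and endothelium markers had a gene-end region, while 1 of 6 neutrophil and 1 of 5 dendritic cell markers did. These were S100a8, at 3.07 to 4.70, and Flt3, at 1.93 to 3.45. Counting any assigned region, 3 T cell, 1 B cell, 3 fibroblast and endothelium, 5 neutrophil and 4 dendritic cell markers had 1 or more. Purity of the cultures was not tested.

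IkB proteins bind NF-kB transcription factors. The cytoplasmic members IkB-alpha (Nfkbia), IkB-beta (Nfkbib) and IkB-epsilon (Nfkbie) hold NF-kB dimers inactive until the IkB kinase marks them for degradation, and resynthesis of IkB-alpha, itself a target of NF-kB, ends a wave of signalling. The nuclear members IkB-NS (Nfkbid), IkB-zeta (Nfkbiz) and Bcl-3 (Bcl3) bind NF-kB p50 or p52 on DNA and modify transcription of a part of the target genes; IkB-zeta is needed for induction of Il6 and other secondary response genes in macrophages.

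Nfkbia is a known NF-kB target with sites in its promoter, so the 250 bases before the start of each gene were searched on both strands for the 10-base kappa B consensus. RefSeq promoters (GRCm38.p6) were held for 5 of the 6 members, with 7 starts, since Nfkbid has 3. A match was present in 3 of the 7 windows and in 7.3% of all 32851 windows of the same length in that table. The 3 windows are printed 5′ to 3′ on the strand of the gene, up to the base before the start, with the matches in capitals.
Nfkbia, chr12:55492648-55492897, minus strand: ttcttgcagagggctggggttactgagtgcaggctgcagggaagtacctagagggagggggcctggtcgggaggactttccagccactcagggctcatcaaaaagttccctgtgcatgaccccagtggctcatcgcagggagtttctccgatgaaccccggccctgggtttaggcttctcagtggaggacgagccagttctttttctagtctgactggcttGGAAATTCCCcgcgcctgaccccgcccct
Nfkbie, chr17:45555450-45555699, plus strand: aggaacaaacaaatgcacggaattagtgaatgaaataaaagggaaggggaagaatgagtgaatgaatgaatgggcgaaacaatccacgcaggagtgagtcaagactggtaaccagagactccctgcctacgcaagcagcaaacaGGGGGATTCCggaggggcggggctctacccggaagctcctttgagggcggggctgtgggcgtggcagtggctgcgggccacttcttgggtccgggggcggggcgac
Nfkbid second start, chr7:30422156-30422405, plus strand: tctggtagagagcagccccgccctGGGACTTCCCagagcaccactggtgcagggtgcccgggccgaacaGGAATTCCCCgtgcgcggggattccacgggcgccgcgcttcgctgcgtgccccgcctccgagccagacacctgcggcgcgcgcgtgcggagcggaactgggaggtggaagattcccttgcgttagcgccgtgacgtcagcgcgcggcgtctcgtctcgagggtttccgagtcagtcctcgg
The Nfkbia match GGAAATTCCC began at -29 relative to the start, and the Nfkbie match GGGGGATTCC at -106. The second start of Nfkbid had 2 matches, GGGACTTCCC at -226 and GGAATTCCCC at -181. All 3 windows lay whole inside a measured region, described with its values further on. No match was in the windows of Nfkbib, Bcl3 and the other 2 Nfkbid starts. A match is a description of the letters and not a measured binding site.

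A single stimulus opened many of these regions. Against MM, 25 of 45 member regions were higher and 0 lower in MC, 27 higher and 1 lower in ML, 22 higher and 2 lower in MP, and 15 higher and 1 lower in MT (limma, adjusted p under 0.05 over all regions). The share of all regions called higher was 17.2% in MC, 15.0% in ML, 14.3% in MP and 5.79% in MT, and the share called lower was 8.79%, 9.55%, 8.28% and 0.573%. The median log2 difference of the members was 0.72 in MC, 0.71 in ML, 0.75 in MP and 0.45 in MT, against -0.01 to 0.01 over all regions. In MC no member was lower at an unadjusted p under 0.05 either, or by voom on the recovered reads. These 4 comparisons share the MM libraries. When each library was left out in turn, 21 of the 25 calls were kept in MC, 18 of 28 in ML, 18 of 24 in MP and 10 of 16 in MT.

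Of the 45 regions, 13 were higher with all 4 stimuli, 7 with 3, 6 with 2, 4 with 1 and 15 with none. The shares of all regions were 3.94%, 4.35%, 6.50%, 10.4% and 74.8%, and joint calls share the MM libraries. The 13 were 11 distal regions of Nfkbia, Nfkbiz, Bcl3 and Nfkbie and 2 gene-end regions, 1 of Nfkbia and 1 of Nfkbiz. Among the 12 gene-end regions, 5 were higher in MC, 6 in ML, 6 in MP and 2 in MT. Of all 12140 gene-end regions, 5.96%, 6.68%, 6.00% and 1.52% were higher. Among the 33 distal members the counts were 20, 21, 16 and 13, and 20.3%, 17.6%, 16.8% and 6.91% of all 36681 distal regions were higher. Over the 9 groups, 38 of 45 regions differed by the F test, as did 63.7% of all regions. The distal regions given in full further on were, per gene, up to 3 with the smallest p of this test. They were thus selected on the same libraries, and their differences and p-values are those of selected regions. The heat map of log2 differences shows both the open blocks downstream of Nfkbia and the rows without calls.

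**Figure D1:**
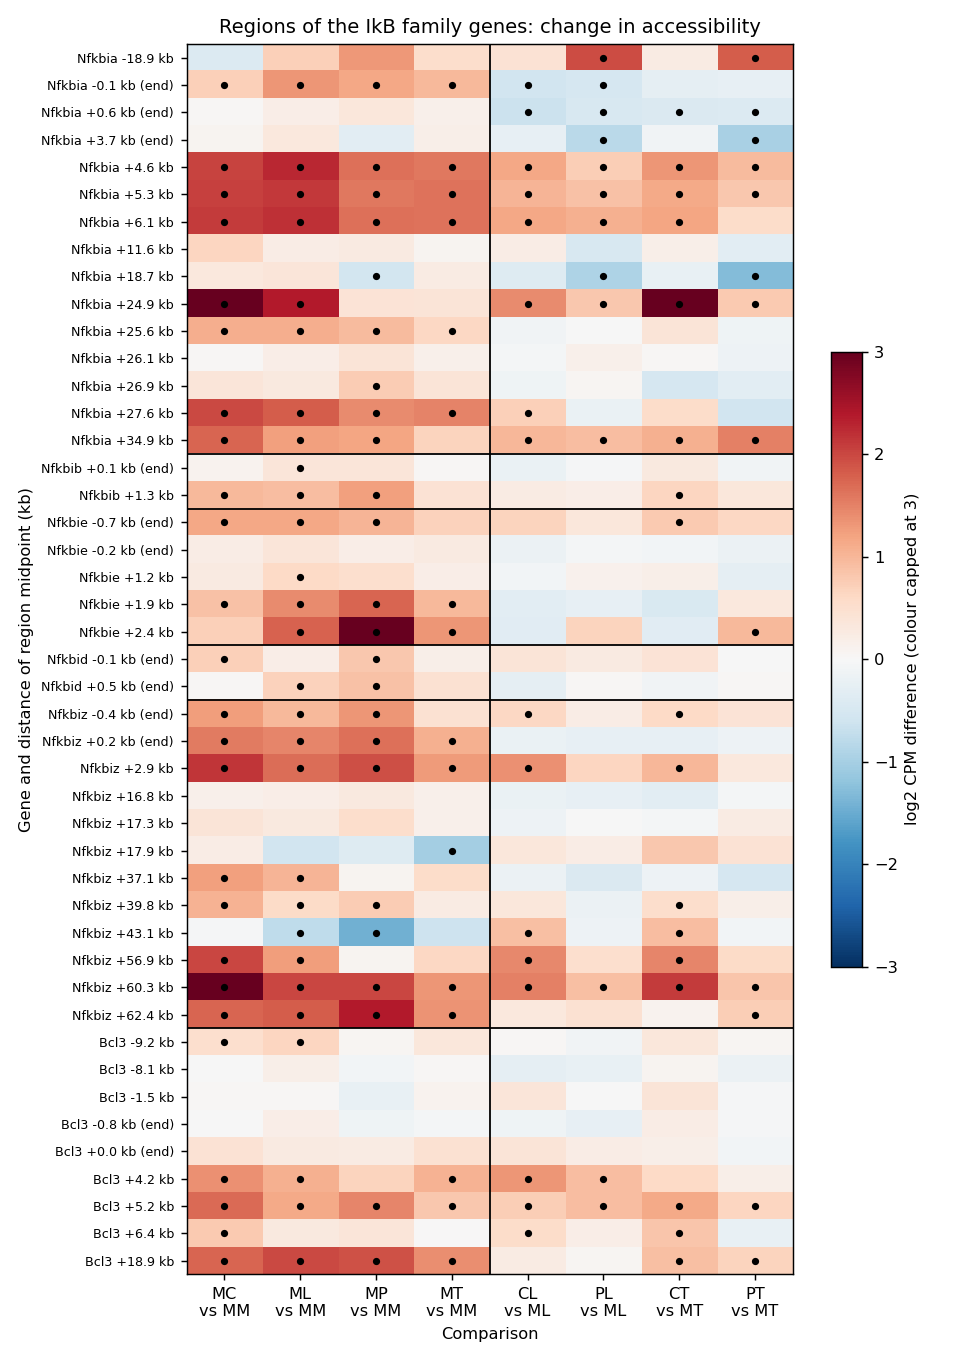
Each row is 1 of the 45 member regions, named by gene and the distance in kb of its midpoint downstream of the gene start (for Nfkbiz, below the higher-coordinate end of the gene body, since its strand is not given), with gene-end regions marked "end". Each column is 1 comparison, colour is the log2 CPM difference (capped at 3), and dots mark adjusted p under 0.05: 25 dots stand in the MC column and 16 in the MT column.

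The start of Nfkbia held the member region with the highest mean level. This region, chr12:55492523-55493024 (mm10), holds the promoter printed above, with its kappa B match. Its log2 CPM was 5.54 and 5.43 in MM, 6.22 and 6.19 in MC, 6.78 and 6.83 in ML, 6.74 and 6.56 in MP, and 6.66 and 6.24 in MT. Every library with a stimulus was above both MM libraries. The log2 difference from MM was 0.72 ± 0.13 (SE) in MC, 1.32 ± 0.13 in ML, 1.16 ± 0.16 in MP and 0.96 ± 0.13 in MT (limma, adjusted p at most 7.47e-05). After 2 stimuli the values were 6.11 and 6.35 in CL, 6.37 and 6.23 in PL, 6.04 and 6.33 in CT, and 6.42 and 6.00 in PT. All 4 libraries of CL and PL lay below both ML libraries while staying above MM.

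At the Nfkbia start, prior CpG went with a level 0.57 ± 0.13 lower on the log2 scale under LPS (-0.57, adjusted p = 0.00296), and prior polyI:C with -0.50 ± 0.13 (adjusted p = 0.00613; limma). The CpG call was lost without CL replicate 1 (-0.45, adjusted p = 0.0997), and the polyI:C call without ML replicate 2 (-0.47, adjusted p = 0.0619) or PL replicate 2 (-0.43, adjusted p = 0.0951). Under TNF the differences were -0.26 ± 0.13 and -0.24 ± 0.13, with adjusted p of 0.189 and 0.185. Whether the LPS and TNF differences differ was tested by the interaction, which was -0.31 ± 0.19 for CpG (adjusted p = 0.52) and -0.26 ± 0.19 for polyI:C (adjusted p = 1). The neighbouring gene-end region at 0.6 kb, inside the gene, was named after its values were seen. There the 4 differences were -0.65, -0.49, -0.42 and -0.42 for CL, PL, CT and PT, all called, and only the CL call was kept in every fit without 1 library. The PL call was lost without ML replicate 1 (-0.53), ML replicate 2 (-0.44) or PL replicate 2 (-0.28), the PT call without MT replicate 1 (-0.43), MT replicate 2 (-0.41) or PT replicate 2 (-0.19), and the CT call without any 1 of its 4 libraries (-0.55 to -0.30).

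Just past the 3′ end of Nfkbia, 3 regions stood at 4.6, 5.3 and 6.1 kb downstream of the start, 1.4 to 2.9 kb beyond the gene body. They rose with every single stimulus and rose further in most groups with a prior stimulus. At 4.6 kb, chr12:55487787-55488288, log2 CPM was 1.77 and 2.23 in MM, 4.23 and 3.81 in MC, 4.50 and 4.03 in ML, 3.63 and 3.69 in MP, and 3.60 and 3.57 in MT. With 2 stimuli it was 5.44 and 5.40 in CL, 4.96 and 5.03 in PL, 4.95 and 4.85 in CT, and 4.87 and 4.20 in PT. The MM libraries were the lowest, and each library with 2 stimuli was above both libraries of the same second stimulus alone. Against MM the log2 difference was 2.02 ± 0.20 in MC, 2.26 ± 0.20 in ML, 1.66 ± 0.25 in MP and 1.59 ± 0.20 in MT, with adjusted p from 1.03e-10 to 3.73e-06 (limma).

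With CpG first, the 4.6 kb region was higher by 1.16 ± 0.20 under LPS (adjusted p = 0.000144) and by 1.31 ± 0.20 under TNF (adjusted p = 1.15e-05; limma). With polyI:C first, the difference was 0.73 ± 0.20 under LPS (adjusted p = 0.00845) and 0.95 ± 0.20 under TNF (adjusted p = 0.000689). The LPS call was lost without ML replicate 2 (0.49, adjusted p = 0.192) or PL replicate 2 (0.70, adjusted p = 0.0742), and the TNF value fell to 0.61 without PT replicate 1 while staying called. At 5.3 kb, chr12:55487081-55487582, log2 CPM was 1.24 and 1.49 in MM, 3.70 and 3.13 in MC, 3.49 and 3.48 in ML, 3.38 and 2.53 in MP, and 3.00 and 2.98 in MT. It was 4.73 and 4.28 in CL, 4.52 and 4.19 in PL, 3.91 and 4.33 in CT, and 3.94 and 3.66 in PT, again above every library of the same second stimulus alone. Its prior-stimulus differences were 1.02, 0.87, 1.13 and 0.82, all called, those of CL and PL not without CL replicate 1 (0.79, adjusted p = 0.0825) or PL replicate 1 (0.70, adjusted p = 0.0904). The 6.1 kb region, named after its values were seen, had log2 differences from MM of 1.63 to 2.19, all called, and 1.16, 1.06, 1.17 and 0.56 for CL, PL, CT and PT, the last not called (adjusted p = 0.16). Its CL call was lost without ML replicate 1 (1.04) or CL replicate 1 (1.03), its PL call without ML replicate 1 (0.95) or PL replicate 1 (0.85), and its CT call without CT replicate 2 (0.96).

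**Figure D2:**
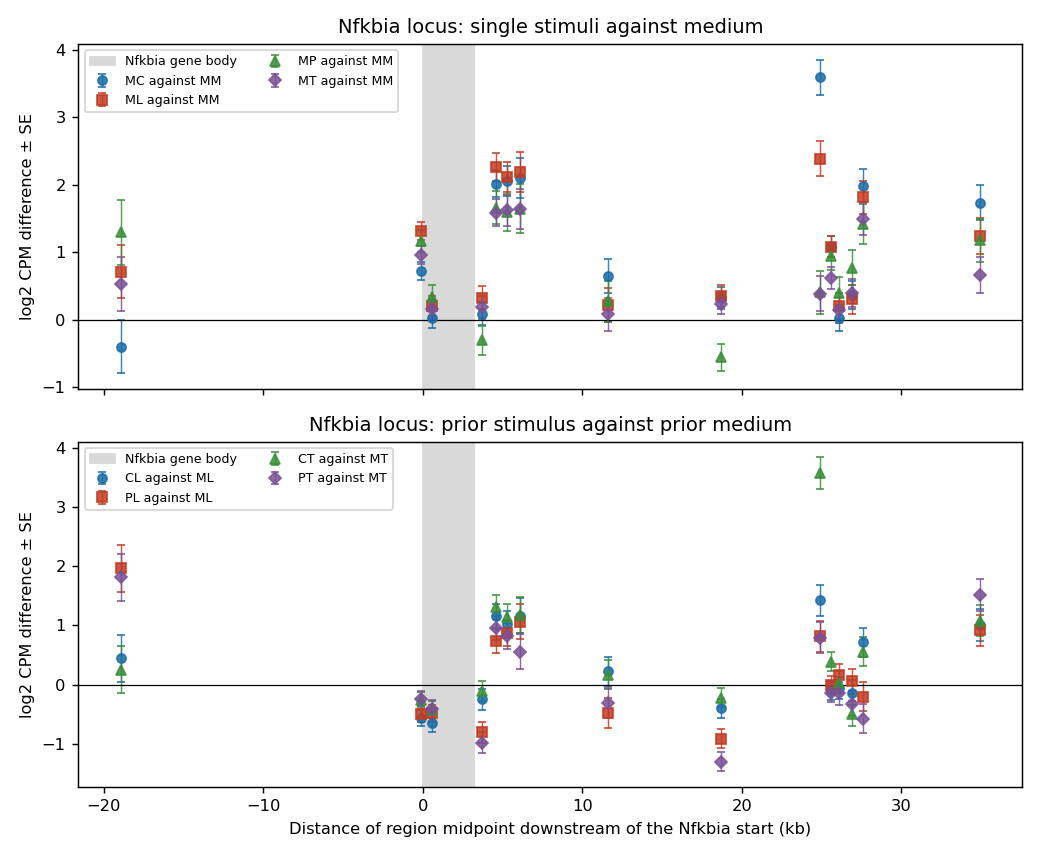
Points are the 15 regions assigned to Nfkbia, placed by the distance of the midpoint downstream of the gene start (kb), with the log2 CPM difference and its SE, for single stimuli (top) and for prior stimuli (bottom), and the gene body shaded. The regions from 4.6 to 6.1 kb lie above 0 in every comparison, the 3 gene-end regions lie below 0 in the bottom panel, and the region at 24.9 kb is at 3.59 in MC and 3.57 in CT.

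A region at 24.9 kb downstream of the Nfkbia start, chr12:55467527-55468028, was high with CpG or LPS and low with polyI:C or TNF. Its log2 CPM was 0.58 and 0.31 in MM, 3.74 and 4.33 in MC, 3.00 and 2.66 in ML, 0.77 and 0.93 in MP, and 0.97 and 0.69 in MT. All MC and ML libraries were above all MP, MT and MM libraries. The log2 difference from MM was 3.59 ± 0.26 in MC (adjusted p = 5.43e-13) and 2.39 ± 0.26 in ML (adjusted p = 1.1e-08), against 0.41 ± 0.32 in MP (adjusted p = 0.418) and 0.38 ± 0.26 in MT (adjusted p = 0.52; limma). Direct comparisons gave 3.19 ± 0.32 for MC against MP, -1.98 ± 0.32 for MP against ML and 2.00 ± 0.26 for ML against MT, with adjusted p from 1.48e-08 to 5.35e-05. This is a shallow region, with 2 to 120 reads per library and a mean level at percentile 7.5 of all regions, so its log2 differences are understated by the prior reads in the deposited values.

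After 2 stimuli the 24.9 kb region of Nfkbia had log2 CPM of 4.25 and 4.26 in CL, 3.70 and 3.59 in PL, 4.41 and 4.39 in CT, and 1.39 and 1.86 in PT. Both CT libraries were above every MT library and above every single-stimulus library, those of MC included. Prior CpG went with a difference of 3.57 ± 0.26 under TNF (adjusted p = 3.67e-12) and 1.42 ± 0.26 under LPS (adjusted p = 0.000282; limma). The difference between these, LPS minus TNF, was -2.15 ± 0.37 (adjusted p = 0.00226), the only call among the 45 members, in a comparison that called 0.00929% of all regions higher and 0.236% lower; without ML replicate 1 it was -1.98 (adjusted p = 0.0514). No group had CpG followed by medium, so how much of the CT level stems from the first period was not tested. PolyI:C first went with 0.81 ± 0.26 under LPS and 0.79 ± 0.26 under TNF (adjusted p = 0.0234 for both). The PL call was lost without ML replicate 2 (0.64, adjusted p = 0.202), PL replicate 1 (0.76, adjusted p = 0.125) or PL replicate 2 (0.86, adjusted p = 0.0862), and the PT call without MT replicate 2 (0.66, adjusted p = 0.138) or PT replicate 2 (0.56, adjusted p = 0.233).

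Other Nfkbia regions moved with polyI:C as the first stimulus, and were named after their values were seen. At 18.7 kb, chr12:55473735-55474236, log2 CPM was 5.30 and 5.24 in ML and 4.49 and 4.21 in PL, and 5.17 and 5.13 in MT and 4.04 and 3.66 in PT, without overlap in either pair. The log2 difference was -0.92 ± 0.16 under LPS (adjusted p = 8.12e-05) and -1.30 ± 0.16 under TNF (adjusted p = 2.97e-07), while those for prior CpG were -0.40 and -0.22 (adjusted p of 0.0877 and 0.397; limma). The 3′ end region at 3.7 kb followed the same order, at -0.81 ± 0.17 in PL (adjusted p = 0.000734) and -0.98 ± 0.17 in PT (adjusted p = 6.08e-05), although without PT replicate 2 the PT value was -0.57. Upstream, at -18.9 kb, chr12:55511290-55511791, log2 CPM was 1.09 and 1.15 in ML and 3.28 and 2.90 in PL, and 1.20 and 0.69 in MT and 2.85 and 2.66 in PT. That region was the shallowest member, with 0 to 42 reads per library, and its log2 differences were 1.96 ± 0.40 (adjusted p = 0.000429) and 1.81 ± 0.40 (adjusted p = 0.000834). At 34.9 kb all 4 prior-stimulus differences were called, at 1.01, 0.91, 1.08 and 1.51; those of CT and PT were kept in every fit without 1 library, the CL call was lost without ML replicate 2 (0.64) or CL replicate 1 (0.93), and the PL call without ML replicate 2 (0.55) or PL replicate 1 (0.46).

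Nfkbib and Nfkbie encode the other cytoplasmic inhibitors. The Nfkbib start region, chr7:28766285-28766786, had log2 CPM from 5.49 to 6.21 over all 18 libraries, with 5.79 and 5.80 in MM and 6.10 and 6.21 in ML. Its only call among the single stimuli was ML, at 0.37 ± 0.13 (adjusted p = 0.0364; limma), and this was lost without any 1 of the 4 libraries concerned (0.31 to 0.42). Inside Nfkbib, 1.3 kb downstream of the start, chr7:28765127-28765628, log2 CPM was 3.76 and 3.81 in MM, 4.90 and 4.62 in MC, 4.70 and 4.71 in ML, 4.91 and 5.14 in MP, and 4.38 and 4.06 in MT. CpG, LPS and polyI:C were called there, at 0.97 ± 0.18 in MC, 0.92 ± 0.18 in ML and 1.24 ± 0.22 in MP (adjusted p at most 0.000261), and TNF was not, at 0.43 ± 0.18 (adjusted p = 0.193). With 2 stimuli it ranged from 4.20 in PT replicate 2 to 5.09 in PL replicate 1. The call for CT, at 0.64 ± 0.18, was lost without MT replicate 2 (0.48, adjusted p = 0.202), CT replicate 1 (0.66, adjusted p = 0.0573) or CT replicate 2 (0.63, adjusted p = 0.0817).

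Nfkbie held the largest rise of any member region with polyI:C. The region 2.4 kb downstream of its start, chr17:45557889-45558390, inside the gene, had log2 CPM of 1.01 and 0.90 in MM, 1.18 and 2.17 in MC, 2.52 and 2.95 in ML, 4.33 and 4.26 in MP, and 2.69 and 1.86 in MT. Both MP libraries were above every other library of the 9 groups. This region is shallow, with 4 to 108 reads per library, 8 and 4 in MM, and a mean level at percentile 7.5 of all regions. The log2 difference from MM was 3.34 ± 0.39 in MP (adjusted p = 4.71e-08), 1.78 ± 0.32 in ML (adjusted p = 7.1e-05) and 1.32 ± 0.32 in MT (adjusted p = 0.00685), against 0.72 ± 0.32 in MC (adjusted p = 0.0981; limma). The MT call was lost without MM replicate 2 (1.26, adjusted p = 0.073) or MT replicate 1 (0.90, adjusted p = 0.244). MC against MP differed by -2.62 ± 0.39 (adjusted p = 1.4e-05), and MP against ML by 1.56 ± 0.39 (adjusted p = 0.00643), a call lost without ML replicate 1 (1.34, adjusted p = 0.0774).

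With 2 stimuli, the 2.4 kb region of Nfkbie had log2 CPM of 2.15 and 2.63 in CL, 3.43 and 3.40 in PL, 1.61 and 2.28 in CT, and 3.41 and 3.08 in PT. The libraries with polyI:C first were above those with CpG first under either second stimulus. CT against PT was -1.30 ± 0.32 (adjusted p = 0.0026) and CL against PL -1.02 ± 0.32 (adjusted p = 0.0406; limma). The CL call was lost without any 1 of the 4 libraries concerned (-1.26 to -0.78), and the CT call without CT replicate 1 (-0.96, adjusted p = 0.0589). The region beside it at 1.9 kb, chr17:45557362-45557863, rose with all 4 stimuli, by 0.88 ± 0.25 in MC, 1.41 ± 0.25 in ML, 1.74 ± 0.31 in MP and 0.98 ± 0.25 in MT, from 2.32 and 2.49 in MM. The MC call was lost without MM replicate 1 (0.80, adjusted p = 0.0728) or MC replicate 2 (0.64, adjusted p = 0.166), and the MT call without MM replicate 1 (0.90, adjusted p = 0.11) or MT replicate 1 (0.78, adjusted p = 0.199). The Nfkbie start region, chr17:45555291-45555792, with the promoter and kappa B match printed above, ranged from 4.20 to 4.73 over the 18 libraries and was called in none of the 8 comparisons with MM, ML or MT. The other Nfkbie gene-end region, at -0.7 kb, chr17:45554758-45555259, was named after its values were seen. Its log2 CPM was 2.10 and 2.64 in MM, 3.65 and 3.44 in MC, 3.49 and 3.59 in ML, 3.19 and 3.59 in MP, and 3.58 and 2.55 in MT, so that MT overlapped MM. Against MM it was higher by 1.17 ± 0.24 in MC, 1.17 ± 0.24 in ML and 1.02 ± 0.30 in MP, while MT was at 0.70 ± 0.24 (adjusted p = 0.0864). The MC and ML calls were kept under every alternative, and the MP call was lost without MM replicate 1 (0.75, adjusted p = 0.127). The CT difference of 0.78 ± 0.24 was called, but not without MT replicate 2 (0.26, adjusted p = 0.631) or CT replicate 2 (0.63, adjusted p = 0.217), and it was 1.29 without MT replicate 1.

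Nfkbiz, of the nuclear members, had a gene-end region that rose with every stimulus. This region, chr16:55838499-55839000, had log2 CPM of 4.45 and 4.45 in MM, 6.03 and 6.00 in MC, 5.90 and 5.94 in ML, 6.12 and 6.06 in MP, and 5.49 and 5.56 in MT. Replicates nearly coincided, and MT lay between MM and the other stimuli. The log2 difference from MM was 1.57 ± 0.12 in MC, 1.47 ± 0.12 in ML, 1.64 ± 0.15 in MP and 1.08 ± 0.12 in MT (limma, adjusted p at most 9.12e-08). With 2 stimuli the values were 5.65 and 5.80 in CL, 5.59 and 5.76 in PL, 5.25 and 5.32 in CT, and 5.35 and 5.41 in PT. All 8 of these libraries were below those of the same second stimulus alone, but the 4 differences, from -0.24 to -0.15 ± 0.12, were not called (adjusted p from 0.151 to 0.381). The other Nfkbiz gene-end region, chr16:55839067-55839568, named after its values were seen, differed from MM by 1.25 in MC, 0.97 in ML, 1.31 in MP and 0.46 in MT, the last not called (adjusted p = 0.222). Without MM replicate 1 the MC value was 0.82 and the ML call was lost (0.55, adjusted p = 0.0778). With a prior stimulus it was higher by 0.63 ± 0.20 in CL and 0.59 ± 0.20 in CT, although each call was lost without any 1 of its 4 libraries (0.56 to 0.70 and 0.45 to 0.73). The mean of the 2 regions differed by 0.22 in CL, -0.01 in PL, 0.17 in CT and 0.13 in PT, none called.

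A distal region of Nfkbiz, 32.7 kb below the lower-coordinate end of the gene body, differed between stimuli. At chr16:55778444-55778945, log2 CPM was 0.88 and -0.10 in MM, 3.81 and 3.81 in MC, 2.47 and 2.29 in ML, 2.55 and 2.24 in MP, and 1.56 and 1.86 in MT. With 2 stimuli it was 4.12 and 3.65 in CL, 3.28 and 3.30 in PL, 3.94 and 3.66 in CT, and 2.73 and 2.36 in PT. Every library that received CpG, first or second, was above every library that did not. The region is shallow, with 1 to 73 reads per library, 7 and 1 in MM, and a mean level at percentile 11.4 of all regions. The log2 difference from MM was 3.42 ± 0.28 in MC, 1.99 ± 0.28 in ML, 2.01 ± 0.34 in MP and 1.32 ± 0.28 in MT, the last lost without MM replicate 2 (0.83, adjusted p = 0.151). CpG exceeded LPS by 1.42 ± 0.28 (MC against ML, adjusted p = 0.00172) and polyI:C by 1.41 ± 0.34 (adjusted p = 0.00416; limma). Prior CpG went with 1.51 ± 0.28 under LPS (adjusted p = 0.000266) and 2.09 ± 0.28 under TNF (adjusted p = 9.32e-07). The differences for prior polyI:C were 0.91 ± 0.28 and 0.83 ± 0.28; the call under LPS was lost without any 1 of the 4 libraries concerned (0.77 to 1.00), and that under TNF without MT replicate 1 (0.69, adjusted p = 0.176) or PT replicate 1 (0.65, adjusted p = 0.112).

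The next region, 34.8 kb from the body of Nfkbiz at chr16:55776279-55776780, had a different order of stimuli. Its log2 CPM was 1.70 and 2.13 in MM, 3.74 and 3.58 in MC, 3.65 and 3.79 in ML, 4.31 and 4.29 in MP, and 3.62 and 2.88 in MT, with differences from MM of 1.75 ± 0.23, 1.81 ± 0.23, 2.39 ± 0.28 and 1.34 ± 0.23, all called (limma, adjusted p at most 8.37e-05). Both MP libraries were the highest of the single stimuli, although MP against ML was not called (0.58 ± 0.28, adjusted p = 0.195). Inside Nfkbiz, chr16:55835757-55836258 had log2 CPM of 1.53 and 0.90 in MM, 3.48 and 3.25 in MC, 2.78 and 2.99 in ML, 3.04 and 3.27 in MP, and 2.31 and 2.67 in MT. It rose by 2.15 ± 0.24, 1.67 ± 0.24, 1.94 ± 0.30 and 1.27 ± 0.24 in that order of stimuli. With 4.41 and 4.10 in CL it lay above both ML libraries, by 1.37 ± 0.24 (adjusted p = 0.00018), and with 3.65 and 3.34 in CT above MT, by 1.00 ± 0.24, lost without MT replicate 1 (0.82, adjusted p = 0.0723) or CT replicate 1 (0.85, adjusted p = 0.0682).

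**Figure D3:**
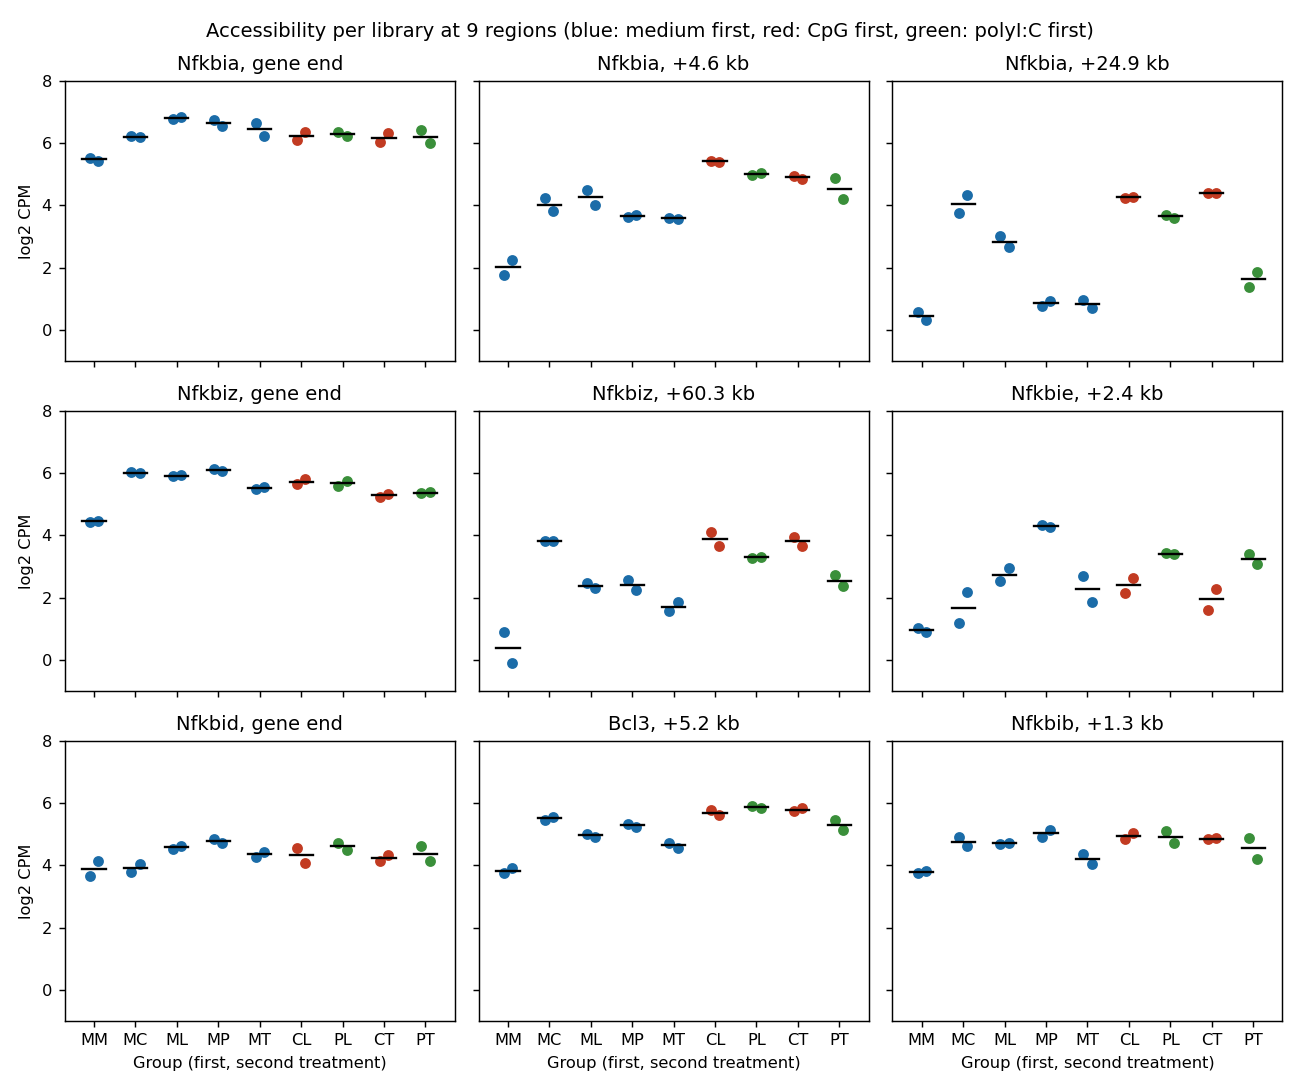
Log2 CPM of each library (points) and the group mean (bar) at 9 member regions, 2 libraries per group, with colour for the first treatment. Nfkbia at 24.9 kb is near 4 in MC, CL and CT and under 2 in MM, MP, MT and PT, Nfkbie at 2.4 kb is highest in MP, and the Nfkbia gene end is lowest in MM.

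Not all Nfkbiz regions opened with a single stimulus. At 15.5 kb from the gene body, chr16:55795584-55796085, named after its values were seen, log2 CPM was 3.50 and 4.00 in MM, 3.79 and 3.62 in MC, 3.23 and 2.74 in ML, 2.26 and 2.36 in MP, and 3.08 and 3.19 in MT. It fell by 1.44 ± 0.27 with polyI:C (adjusted p = 0.000119; limma) and by 0.76 ± 0.22 with LPS (adjusted p = 0.0103), the latter lost without MM replicate 2 (-0.52, adjusted p = 0.206) or ML replicate 2 (-0.52, adjusted p = 0.191), and with CpG it differed by -0.04 ± 0.22. With CpG first the 15.5 kb region was called higher under both second stimuli, at 3.77 and 4.00 in CL and 4.14 and 3.99 in CT. CL exceeded ML by 0.90, a call lost without ML replicate 2 (0.66) or CL replicate 2 (0.78). With polyI:C first it was not called. The other members called lower with a single stimulus were the 18.7 kb Nfkbia region in MP and a region inside Nfkbiz in MT, and each of these calls was lost without single libraries. For Nfkbia these were MM replicate 1 (-0.43 in place of -0.56, adjusted p = 0.218) and MP replicate 1 (-0.43, adjusted p = 0.114), and for Nfkbiz each of the 4 libraries concerned (-1.16 to -0.87).

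Nfkbid had 2 regions, both at its start, and the one over the second promoter was higher with LPS and polyI:C. That region, with the 2 kappa B matches printed above, chr7:30421954-30422455, had log2 CPM of 3.65 and 4.13 in MM, 3.79 and 4.05 in MC, 4.54 and 4.64 in ML, 4.84 and 4.71 in MP, and 4.27 and 4.43 in MT. LPS and polyI:C libraries were above all MM and MC libraries. The log2 difference was 0.70 ± 0.19 in ML (adjusted p = 0.00743) and 0.89 ± 0.24 in MP (adjusted p = 0.0051), against 0.03 ± 0.19 in MC and 0.47 ± 0.19 in MT (adjusted p = 0.181; limma). Without MM replicate 1 the ML value was 0.46 (adjusted p = 0.177) and the MP value 0.65 (adjusted p = 0.093), and without ML replicate 2 the ML value was 0.65 (adjusted p = 0.0703). MC against MP differed by -0.86 ± 0.24 (adjusted p = 0.0123), lost without MC replicate 1 (-0.73, adjusted p = 0.11). With 2 stimuli the region ranged from 4.07 to 4.72, and none of the 4 prior-stimulus differences, from -0.27 to 0.03, was called. The other start region, chr7:30421410-30421911, named after its values were seen, was higher by 0.71 in MC and 0.80 in MP; both calls were lost without MM replicate 1 (0.54 and 0.64), and each without replicate 1 of its stimulus (0.56 and 0.71).

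Bcl3, a nuclear member that partners p50 and p52 homodimers, had its calls inside and beyond the gene. Its start region, chr7:19822586-19823087, ranged from 3.72 and 3.78 in MM to 4.46 in CL replicate 2, and every other library was above both MM libraries. It differed over the 9 groups by the F test (adjusted p = 0.0297), but its differences from MM of 0.25 to 0.45 were not called, nor were those for a prior stimulus. At 5.2 kb downstream of the start, chr7:19817358-19817859, log2 CPM was 3.76 and 3.91 in MM, 5.48 and 5.57 in MC, 5.01 and 4.92 in ML, 5.34 and 5.25 in MP, and 4.72 and 4.56 in MT. With 2 stimuli it was 5.77 and 5.62 in CL, 5.92 and 5.84 in PL, 5.73 and 5.84 in CT, and 5.45 and 5.13 in PT. No library of a group with 2 stimuli overlapped the libraries of its second stimulus alone. All 8 differences were called and kept in every fit without 1 library: 1.69 ± 0.14, 1.13 ± 0.14, 1.46 ± 0.17 and 0.81 ± 0.14 for the single stimuli, and 0.73, 0.91, 1.14 and 0.65, each ± 0.14, for CL, PL, CT and PT (limma, adjusted p at most 0.000618).

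Further along Bcl3, the region 18.9 kb from the start, chr7:19803682-19804183, beyond the 3′ end, had log2 CPM of 2.16 and 1.32 in MM, 3.50 and 3.48 in MC, 3.98 and 3.45 in ML, 3.65 and 3.64 in MP, and 3.19 and 3.07 in MT. It rose by 1.75 ± 0.24, 1.98 ± 0.24, 1.91 ± 0.29 and 1.39 ± 0.24 (limma, adjusted p at most 0.000111). Neither LPS group with a prior stimulus differed from ML there (0.26 and 0.06), while CT and PT exceeded MT by 0.91 and 0.67, calls lost without MT replicate 2 (0.84, adjusted p = 0.074, and 0.60, adjusted p = 0.15), without CT replicate 2 (0.89, adjusted p = 0.0583), and, for PT, without MT replicate 1 (0.73, adjusted p = 0.0969) or PT replicate 1 (0.43, adjusted p = 0.214). At 6.4 kb, chr7:19816165-19816666, the level followed CpG: 5.59 and 5.63 in MC, 5.64 and 5.65 in CL and 5.66 and 5.69 in CT, against 4.34 to 5.44 in the 12 libraries without CpG. The difference from MM was 0.79 ± 0.15 in MC (adjusted p = 0.000144), and CT exceeded MT by 0.84 ± 0.15 (adjusted p = 0.000141) and PT by 1.06 ± 0.15 (adjusted p = 4.49e-06). The CL difference from ML, 0.54 ± 0.15, was called but lost without any 1 of the 4 libraries concerned (0.52 to 0.57).

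Over all members, the counts with a prior stimulus were set beside those of all regions. Against ML, 14 of 45 regions were higher and 2 lower in CL (9.95% of all regions called higher and 5.76% lower), and 9 higher and 4 lower in PL (13.5% and 9.36%). Against MT, 16 were higher and 1 lower in CT (10.6% and 5.65%), and 10 higher and 3 lower in PT (15.0% and 12.7%). As shares of the 45 members, the lower calls were 4.44%, 8.89%, 2.22% and 6.67%, below the share of all regions each time, and the calls in either direction in PT were 28.9%, near the 27.7% of all regions. The member median was 0.26 in CL, 0.06 in PL, 0.34 in CT and 0.03 in PT, against 0.04, 0.02, 0.02 and 0.00 over all regions. CL and PL share the ML libraries, and CT and PT the MT libraries. Without CL replicate 1 the CL count was 9. The PL count was 6 without ML replicate 2, 7 without PL replicate 1 and 8 without PL replicate 2, and the CT count was 11 without CT replicate 2. All 10 lower calls were in Nfkbia, at its gene ends in 8 cases and at 18.7 kb in the other 2. Higher in all 4 comparisons were 2.49% of all regions and 6 members: Nfkbia at 4.6, 5.3, 24.9 and 34.9 kb, Nfkbiz at 32.7 kb from its body and Bcl3 at 5.2 kb.

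Groups that differed only in the first stimulus were also compared. CL against PL called 6 higher and 2 lower (4.24% and 4.23% of all regions), but none of these was kept in every fit without 1 library. CT against PT called 13 higher and 4 lower (17.3% and 14.6%), of which 7 were kept; the count was 10 without CT replicate 2 and 11 without PT replicate 2. Among single stimuli, ML against MT called 2 higher and 0 lower (3.11% and 1.23%), MC against ML 5 higher and 3 lower (3.74% and 1.93%), MP against ML 1 higher and 4 lower (6.24% and 5.19%), and MC against MP 6 higher and 3 lower (7.47% and 5.20%). In ML against MT no member was lower at an unadjusted p under 0.05, or by voom. The interaction tests of prior polyI:C, LPS minus TNF, called 0 members and 0% of all regions by limma, and voom also called 0; at an unadjusted p under 0.05 there were 0 members and 2597 regions.

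Distal and gene-end regions of the same gene were compared directly, by the mean log2 CPM of the distal regions minus that of the gene-end regions in each library. Nfkbia had 12 distal and 3 gene-end regions. Its distal mean rose by 1.29 ± 0.14 in MC while its gene-end mean differed by 0.28 ± 0.15, and the difference between these was 1.01 ± 0.13 (limma, adjusted p = 1.4e-05 over 6129 genes with both classes). It was 0.62 ± 0.13 in ML (adjusted p = 0.00208), 0.52 ± 0.16 in MP (adjusted p = 0.0256) and 0.35 ± 0.13 in MT (adjusted p = 0.14). The MP call was lost without MM replicate 1 (0.52, adjusted p = 0.0633) or MM replicate 2 (0.52, adjusted p = 0.0677). Under a prior stimulus the difference was 1.03 ± 0.13 in CL, 1.01 ± 0.13 in PL, 1.01 ± 0.13 in CT and 0.85 ± 0.13 in PT (adjusted p at most 0.000206). In these 4 the gene-end mean differed by -0.49, -0.60, -0.27 and -0.55, and the distal mean by 0.54, 0.41, 0.75 and 0.30. Taken alone, the gene-end part was called in PL (adjusted p = 0.0106) and PT (adjusted p = 0.0146), and the distal part in CL, PL and CT (adjusted p of 0.0183, 0.0382 and 0.00246).

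**Figure D4:**
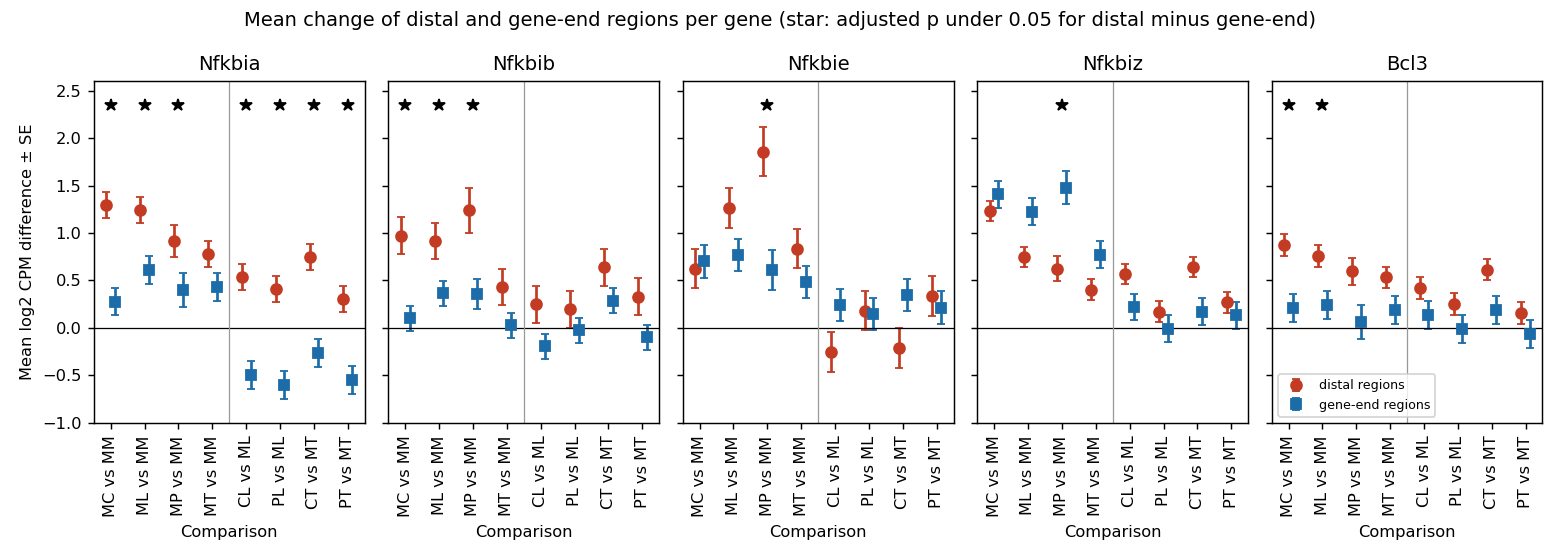
Mean log2 CPM difference (± SE) of the distal regions (circles) and the gene-end regions (squares) of 5 members, for 4 single stimuli against MM and 4 prior stimuli against ML or MT; stars mark adjusted p under 0.05 for distal minus gene-end, and Nfkbid has no distal region. Nfkbia has 7 stars of 8, with squares below 0 in the right part, and Nfkbiz has squares above circles for the single stimuli.

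In the other members the calls were fewer over single and prior stimuli together, although Nfkbib had as many as Nfkbia with single stimuli. With single stimuli the distal minus gene-end difference was 0.87 ± 0.15 in MC, 0.55 ± 0.15 in ML and 0.88 ± 0.19 in MP for Nfkbib, 0.67 ± 0.16 in MC and 0.51 ± 0.16 in ML for Bcl3, and 1.25 ± 0.25 in MP for Nfkbie, all called. The Nfkbie call was lost without regions under the 25th percentile of level (0.50, adjusted p = 0.179). Nfkbiz went the other way in MP, at -0.85 ± 0.22 (adjusted p = 0.00939; limma), where its gene-end mean rose by 1.48 and its distal mean by 0.62. The calls made 10 of 20 gene-comparisons for single stimuli, and 4 of 20, all Nfkbia, for prior stimuli. Of all 6129 genes, 30.4% were called in MC, 23.1% in ML, 21.9% in MP, 5.58% in MT, 14.8% in CL, 23.4% in PL, 17.6% in CT and 20.3% in PT, with medians of 0.09 to 0.18. The 4 of 20 for prior stimuli was thus near the shares of all genes in CL, PL, CT and PT. Without MM replicate 1 the single-stimulus count was 6: the calls lost were Nfkbia in MP, Nfkbib in ML (0.53, adjusted p = 0.0634), Bcl3 in ML (0.42, adjusted p = 0.147) and Nfkbiz in MP (-0.60, adjusted p = 0.0786). Bcl3 in MC was lost without MC replicate 2 (0.58, adjusted p = 0.0507), and Nfkbib and Bcl3 in ML also without ML replicate 1 (0.50 and 0.33), and Nfkbib in ML without MM replicate 2 (0.57). The only distal region of Nfkbib lay 1.3 kb from the nearest gene end, and the Nfkbie distal regions lay 1.2, 1.9 and 2.4 kb from theirs. With gene ends drawn at 2.5 kb neither gene had a distal region, so their calls could not be formed at that limit. The 2.5 kb limit also moves the 4.6 and 5.3 kb Nfkbia regions into the gene-end class, and no Nfkbia call remained. Its difference was then 0.17 in MC (adjusted p = 0.383), -0.20 in ML (adjusted p = 0.326), -0.11 in MP (adjusted p = 0.679), 0.29 in CL (adjusted p = 0.175), 0.38 in PL (adjusted p = 0.0577), 0.32 in CT (adjusted p = 0.115) and 0.16 in PT (adjusted p = 0.426), and the counts over members were 4 and 0.

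The rest of the NF-kB pathway was read from 31 genes of its subunits, kinases, adaptors, ubiquitin editors and ligases, with 170 regions. Of these regions 69 were higher and 8 lower in MC, 67 and 5 in ML, 49 and 9 in MP, and 32 and 2 in MT. The higher calls made 40.6%, 39.4%, 28.8% and 18.8% of the 170, against 17.2%, 15.0%, 14.3% and 5.79% of all regions. The lower calls made 4.71%, 2.94%, 5.29% and 1.18%, against 8.79%, 9.55%, 8.28% and 0.573%. With a prior stimulus the counts were 29 and 9 in CL, 25 and 12 in PL, 41 and 6 in CT, and 23 and 22 in PT. Here the higher calls made 17.1%, 14.7%, 24.1% and 13.5%, against 9.95%, 13.5%, 10.6% and 15.0% of all regions. The lower calls made 5.29%, 7.06%, 3.53% and 12.9%, against 5.76%, 9.36%, 5.65% and 12.7%. In PL and PT the pathway shares were thus near those of all regions. The median log2 difference of the 170 regions was 0.29 in MC, 0.35 in ML, 0.32 in MP and 0.11 in MT. The member medians given before were 0.72, 0.71, 0.75 and 0.45, and no test compared the lists. The largest rise with CpG, LPS and polyI:C was in a region inside Nfkb1, the gene of p105 and p50, at 4.26 ± 0.19, 3.86 ± 0.19 and 3.79 ± 0.23. With TNF it was inside Tnip1, a partner of the ubiquitin editor A20, at 2.80 ± 0.22. The largest rises with CpG first were inside Birc3, the gene of cIAP2, at 2.45 ± 0.31 in CL and 2.93 ± 0.31 in CT (limma, adjusted p at most 1.41e-06).

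Mean distal levels over the 17 samples were compared with those of all 6631 genes with at least 2 distal regions, as a description. Among the nearest to Nfkbia were Bcl3 (Pearson r = 0.979) and Thumpd3 (0.977), and among the nearest to Bcl3 were Nfkbia (0.979) and Thumpd3 (0.975). For Nfkbiz the nearest were Sh3bp4 (0.976), Tpm4 (0.968) and Prag1 (0.968), and for Nfkbie Slc28a1 (0.945), Kpna3 (0.944) and Mical3 (0.929). Among the members, Nfkbiz was at 0.906 with Nfkbia and 0.911 with Bcl3, while Nfkbie was at 0.539 with Nfkbia, 0.456 with Bcl3 and 0.312 with Nfkbiz. The samples share group, depth and the stimulus, so these values describe likeness in these libraries only.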

How the data were processed

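The deposited table held log2 CPM for 18 ATAC-seq libraries, which the authors derived from the reads counted in each region. The submitters' processing notes name MACS3 3.0.0b1, featureCounts, Picard, SAMtools 1.9 and Bowtie2 2.2.5 as tools and mm10 (GRCm38) as build; settings are not given in the sources used here. Whole reads were recovered within 0.01 for 100% of values, with a mean prior of 3 reads and 0 reads at -0.695. The prior shrinks differences at regions with few reads.

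Of 53796 regions of 501 bases from start to end, 48821 were assigned to 13765 genes, using RefSeq positions of 21896 protein-coding genes. Gene starts and strands came from the RefSeq promoter table (GRCm38.p6). Limma 3.58.1 in R 4.3.3 fitted 9 group means to the log2 values of 17 samples (8 residual and 26.64 prior degrees of freedom), with Benjamini-Hochberg adjustment over all regions and calls under 0.05. In MP the 2 libraries differed by about the sampling noise (chi-square per region 1.003, p = 0.2846 over the regions) and were averaged. The other pairs (1.069 to 2.714) were kept apart because their chi-square p was under 0.05. Of these, ML (1.069) and MM (1.078) were only slightly above MP. The fit was tested on simulated reads. Distal minus gene-end used genes with both classes.

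Regions given in full were, per gene, the gene-end region with the highest mean and the 3 distal regions with the smallest F-test p. Others are named where said. Genes most like a member were the 3 with the highest correlation, of which not all are reported here. The members, lists and tests were chosen with earlier results of these data known. Alternatives were other normalizations, filters, variance models, samples in the fit, voom, a replicate block, each library left out, and other assignment limits.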

Additional observations from a re-analysis of the deposited data

Results flagged for a closer look

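The effect of CpG given first differed between the second stimuli at the region 24.9 kb downstream of the Nfkbia start, by a test of that difference. Prior CpG went with 1.42 ± 0.26 under LPS (CL against ML) and 3.57 ± 0.26 under TNF (CT against MT) on the log2 scale, and LPS minus TNF was -2.15 ± 0.37 (limma interaction, adjusted p = 0.00226). The CL and CT libraries were at 4.25 to 4.41 log2 CPM, while ML was at 3.00 and 2.66 and MT at 0.97 and 0.69. Both differences were positive in all libraries compared. Without ML replicate 1 the value was -1.98 (adjusted p = 0.0514), and over the alternatives that kept this region it ranged from -2.51 to -1.76. The filter at the 25th percentile of level dropped the region, whose mean level is at percentile 7.5. It held 8 and 4 reads in MT.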

How the results depend on the processing

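Of 216 named calls, 111 were kept under every alternative, 105 were lost under at least 1 and 2 reversed. The cause of the changes was not tested, apart from those that follow from fewer regions or samples. With gene ends at 2.5 kb, the distal minus gene-end calls were 4 (single stimuli) and 0 (prior stimuli), and the Nfkbia differences reversed in ML (-0.20) and MP (-0.11). Nfkbib and Nfkbie had no distal region at that limit and could not be called. Quantile normalization left 10 member calls in MT and 1 in ML against MT, and shifting libraries to one median also left 1 there. Without regions under the 25th percentile, which drops 12 members, calls were 10 in MT, 9 in CL, 7 in PL, 9 in CT, 8 in PT, 5 in CL against PL, 11 in CT against PT, 0 in ML against MT, 3 in MC against ML, 1 in MP against ML, 3 in MC against MP and 0 in the prior-CpG difference. Without a variance trend they were 5 in CL against PL, 1 in ML against MT and 2 in MC against ML. Voom called 10 in MP against ML, and 9 were called there with every library as its own sample. With only the compared groups fitted, calls were 8 in PT, 13 in CL against PL, 9 in CT against PT, 9 in ML against MT, 13 in MC against ML, 10 in MP against ML and 14 in MC against MP.

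With each library left out, calls ranged from 23 to 25 in MC, 21 to 23 in ML, 19 to 25 in MP, 11 to 14 in MT, 9 to 12 in CL, 6 to 10 in PL, 11 to 14 in CT, 10 to 17 in PT, 0 to 3 in CL against PL, 10 to 22 in CT against PT, 1 to 3 in ML against MT, 1 to 3 in MC against ML, 2 to 6 in MP against ML, 7 to 11 in MC against MP, 0 to 1 in the prior-CpG difference and 0 to 0 in the prior-polyI:C difference. Distal minus gene-end calls ranged from 6 to 11 and from 4 to 6. A group left with 1 library was assumed to vary like the others.

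Replicate numbers did not pair the libraries: deviations of same-numbered libraries correlated at -0.358 to 0.242 over 36 group pairs, 5 of them above 0.1. With the replicate block, calls were 25 in MC, 27 in ML, 25 in MP, 16 in MT, 16 in CL, 13 in PL, 16 in CT and 13 in PT, and 11 and 6 for distal minus gene-end. Voom was not run for distal minus gene-end. With 2 libraries a group and 12 members below the 25th percentile of level, small differences at shallow regions were not detectable.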
